A study of Homo sapiens with 28 samples.

Results

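The comparison here is between 2 internal deletions of ARID1B, named Block9 and Block13 in the sample titles, and the open chromatin of cells that express one or the other. Its members are 4 of the 28 ATAC-seq libraries of the series, 2 of ARID1B_Block9del and 2 of ARID1B_Block13del, chosen by title. All 28 come from AN3CA cells. This established line from a human endometrial carcinoma is known to carry mutations in both ARID1A and ARID1B. Every library is named for the empty vector or for 1 form of ARID1A or ARID1B put into these cells. The reference groups were Empty_vector (4 libraries), ARID1B_WT and ARID1A_WT, the wild-type proteins (2 libraries each), ARID1B_A457_G461del, another internal ARID1B deletion (2 libraries), and ARID1A_Y42S, an ARID1A form with a changed residue (2 libraries). The 6 other groups have 2 libraries each and served only to place the regions that differ. They are ARID1B_S320_G327del (an ARID1B deletion), ARID1A_CBR and ARID1A_delIDR1 (labelled as truncations), ARID1A_DBDmut (changed in the ARID domain), ARID1A_DDX4 (labelled as a hybrid with a foreign disordered region) and ARID1A_AQGscramC1C2 (whose change the labels give by name only). The sources used here do not give the residues that make up Block9 and Block13, the promoter behind the constructs, protein levels or whether cells were clonal or pooled.

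ARID1A and ARID1B are alternative subunits of the canonical BAF complex (cBAF), a remodeler that uses ATP to move or evict nucleosomes. Each has a long, disordered N-terminal stretch, an ARID domain that binds DNA, and a C-terminal part that holds the core of the complex together. ATAC-seq uses a transposase that inserts into exposed DNA, so a peak marks DNA that is open, at promoters, enhancers and insulator sites alike.

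Labels and files disagreed on 1 point. The genotype label of the 4 libraries, and of 6 others, names the empty vector control, while the titles name the constructs. In the 4 lists the peak names carry the construct of the title, and the grouping follows them. The peak names also carry a date code, and the 28 libraries hold 6 of these codes (A to F here). Both deletions share code E with ARID1B_A457_G461del and ARID1A_Y42S, so the comparison between them lies within 1 code. Neither the empty vector nor a wild-type protein was run under code E. Those libraries come from codes A, B and C. A protein form and its level, or a deletion and the particular culture that received it, cannot be told apart here. The labels do not say whether replicates were separate cultures, so the spread between them may be technical.

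The 4 lists were of similar length. Block13del 1 had 33259 peaks, Block13del 2 had 31418, Block9del 1 had 30137 and Block9del 2 had 30140. Read depth is unknown, since the lists hold no read counts. To keep length from setting the calls, every list was cut to its 19433 most significant peaks on chromosomes 1 to 22 and X, the size of the shortest list of the series. The last peak kept had a -log10 p-value of 11.9 and 11.5 in the Block13del lists and of 12.9 and 12.5 in the Block9del lists. At this length Block13del peaks covered 17.5 and 16.5 Mb, and Block9del peaks 17.8 and 18.3 Mb, so Block13del peaks were somewhat narrower. Overlapping peaks of all libraries were merged into 32972 regions, each found in at least 2 libraries. A region counted as called in a library when it shared at least 1 bp with a peak of that list.

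The deletions left most open chromatin alike. All 4 libraries called 15742 regions, and none of them called 9833. The Jaccard index (regions shared, divided by regions called by either) was 0.840 between the Block9del libraries and 0.804 between the Block13del libraries. Across the deletions it was 0.801 on average, with a range of 0.799 to 0.805 over 4 pairs. The Block13del libraries were thus about as close to Block9del as to each other. Both deletions were nearer to Empty_vector than to ARID1B_WT. Block9del had a mean index of 0.801 with Empty_vector and 0.552 with ARID1B_WT, and Block13del had 0.762 and 0.593.

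The regions that differ form a pair of small sets. Both Block13del libraries and no Block9del library called 581 regions, 1.76% of the 32972. Both Block9del libraries and no Block13del library called 505, or 1.53%. The sets are of similar size and sat low in their lists. The Block13del-only regions had a median rank of 16484 and 16698 in the Block13del lists, and the Block9del-only regions 17131 and 16922 in the Block9del lists. Most were weaker rather than closed in the other deletion. Of the 581 Block13del-only regions, 414 (71.3%) were in both whole Block9del lists and 57 (9.81%) in neither. Their median rank there was 23240 in Block9del 1 and 23059 in Block9del 2. Of the 505 Block9del-only regions, 256 (50.7%) were in both whole Block13del lists and 134 (26.5%) in neither.

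The size of the sets, and which is larger, depended on how lists were matched. At equal covered length the counts were 541 for Block13del and 107 for Block9del, and when peaks had to cover 50% of a region they were 324 and 921. With 2 libraries against 2, no exact permutation test can give a p under 0.333, so the sets carry no test of their own.

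The Block13del-only regions were wider, with a median of 915 bp against 628 bp for the Block9del-only regions and 977 bp for all regions. Within the lists that call them, their peaks had a median width of 431 bp and 350 bp. Leaving out regions gained or lost with ARID1B_WT, as defined below, the region medians were 678.5 bp and 595 bp. The peak medians were then 340 bp and 344 bp. Neighbours were more frequent too: 68 Block13del-only regions (11.7%) lay within 100 kb of another of the set, against 24 Block9del-only regions (4.75%). For all regions, a far larger set, the share was 93.6%. Leaving out regions gained or lost with ARID1B_WT, as defined below, the share was 3.60% of 222 Block13del-only and 4.64% of 431 Block9del-only regions. A larger set offers more neighbours, so sets of such unequal size cannot decide whether the excess remained. By chromosome, Block13del-only regions ranged from 0.609% of the regions on chromosome 13 to 3.42% on chromosome 5. Block9del-only regions ranged from 0.809% on chromosome 5 to 2.53% on chromosome 17. Chromosome 5 was thus highest for one set and lowest for the other, with 76 and 18 regions. Chromosome 5 also had the largest share of regions gained with ARID1B_WT, at 19.4%, as defined below. These differences were not tested.

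**Figure D1:**
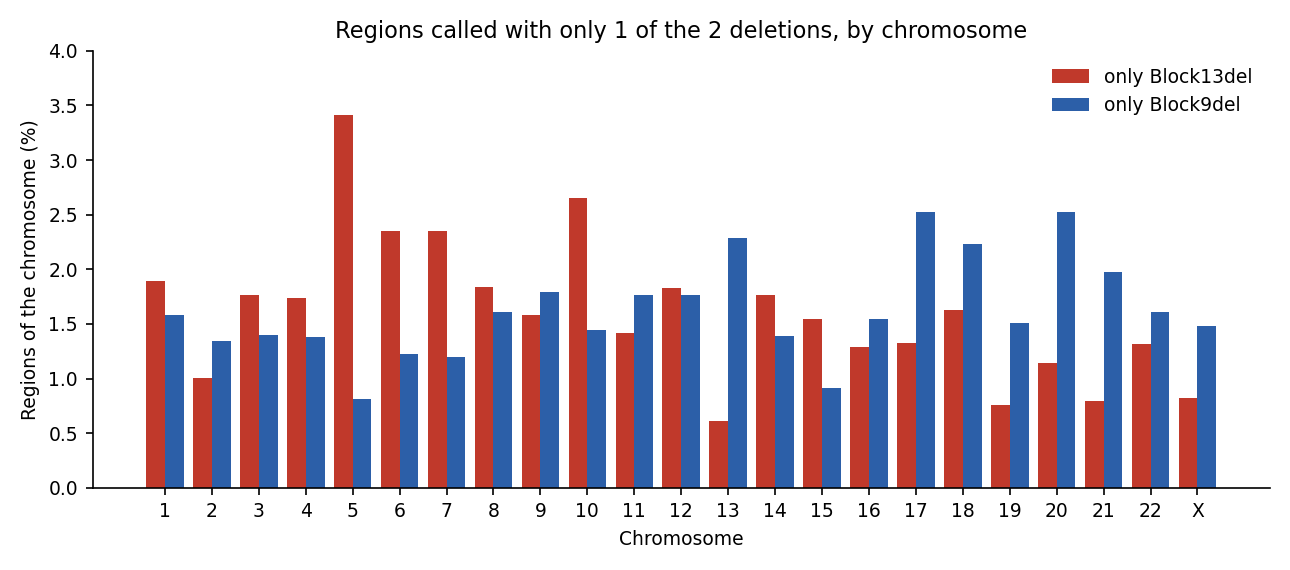
Percent of the merged regions on each chromosome (x axis) that both libraries of 1 deletion and no library of the other called (y axis), in lists of equal length. Red bars are Block13del-only regions and blue bars Block9del-only regions. Chromosome 5 stands at 3.42% in red and 0.809% in blue.

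The next question was whether these sets follow the response of the cells to intact ARID1 protein. Calls in the other 24 libraries had no part in choosing them. Their peaks did enter the merging of regions, and the shortest list, ARID1A_Y42S 2, set the length kept. With regions merged from the 4 lists alone, the sets had 585 and 509 regions. ARID1B_WT 1 and 2 called 69.0% and 66.6% of the Block13del-only regions, and 13.1% and 10.9% of the Block9del-only regions. The Empty_vector libraries called 15.3% to 16.4% of the Block13del-only regions and 50.7% to 56.6% of the Block9del-only regions. At equal list length the order was thus opposite in the wild-type and the empty vector libraries, with no overlap between them in either set. ARID1A_WT, the paralogue, lay on the side of ARID1B_WT, at 63.5% and 63.0% against 19.2% and 21.6%. In the whole lists, which are longer for the wild-type proteins, the Block9del-only regions did overlap. Wild-type libraries called 75.6% to 98.0% of them and Empty_vector 71.5% to 99.6%. For the Block13del-only regions the whole lists gave 94.5% to 99.3% with wild type and 28.9% to 53.5% with Empty_vector.

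The balance, defined as the percent of Block13del-only regions called minus the percent of Block9del-only regions called, gives 1 value a library. It was 49.3 ± 7.59 points in the wild-type libraries (SD, n = 4) and -37.2 ± 2.90 in Empty_vector (SD, n = 4). The difference was 86.5 points (exact permutation test, two-sided, p = 0.0286, the smallest of 70 splits). It did not pass adjustment over the 5 permutation tests made here (Benjamini-Hochberg adjusted exact p = 0.143), 3 of which cannot go below 0.333 by design. The test takes the libraries as independent, although the wild-type ones are replicates of 2 proteins. Within date codes the difference was 79.6 points in A and 78.4 in B (1 library against 1) and 94.0 in C (2 against 2). At equal covered length the pooled difference was 23.5 points and with lists of 50% of the length 22.4 points, with p = 0.0286 in both (exact permutation test).

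The altered proteins spread over this range, and some passed the wild-type end. ARID1B_S320_G327del (58.2 and 56.6 points) and ARID1B_A457_G461del 2 (56.2) lay above the highest wild-type library (55.9). The balance was above 0 in all 12 libraries of 6 groups (both wild-type proteins, ARID1B_S320_G327del, ARID1B_A457_G461del, ARID1A_DBDmut and ARID1A_delIDR1). It was below 0 in all 12 libraries of 5 groups (Empty_vector, ARID1A_CBR, ARID1A_DDX4, ARID1A_Y42S and ARID1A_AQGscramC1C2). Within code E, ARID1B_A457_G461del stood at 55.5 and 56.2 points, and ARID1A_Y42S at -34.4 and -13.3. ARID1A_Y42S 2 has the shortest list of the series, and the part of list length in its value was not tested.

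**Figure D2:**
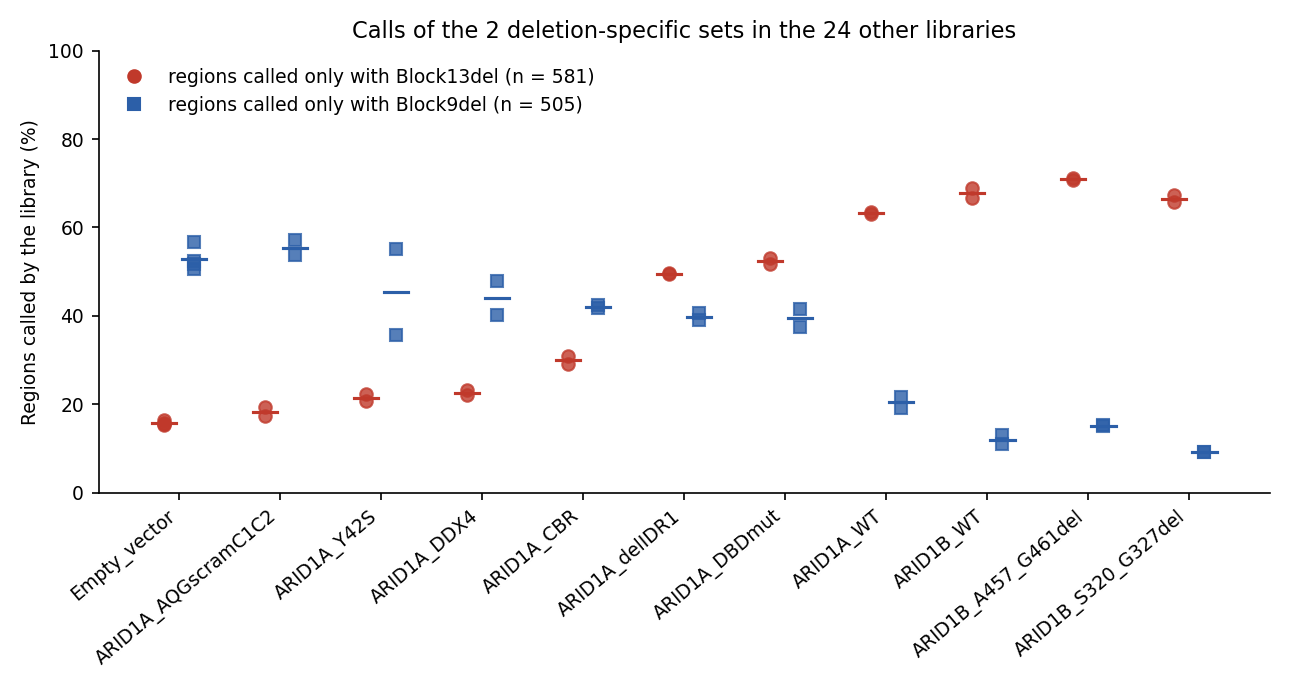
Percent of the 581 Block13del-only regions (red circles) and the 505 Block9del-only regions (blue squares) that each of the 24 other libraries called, in lists of equal length. Each point is a library, short lines are group means, and groups are ordered by the mean difference of the colours. Empty_vector is lowest in red and ARID1B_S320_G327del is lowest in blue.

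Sites that depend on one block and not the other were then sought among the regions that open with wild-type ARID1B. A region called in both ARID1B_WT libraries and no Empty_vector library counts as gained. A region called in all 4 Empty_vector libraries and no ARID1B_WT library counts as lost. Both terms apply at equal list length, so a lost region can still have a weaker peak with ARID1B_WT. There were 4006 gained regions, 12.1% of all, and 1951 lost regions, or 5.92%. Of the gained regions, 344 (8.59%) were called in both Block13del and no Block9del library at equal list length, and are named kept with Block13del alone. Most of them were weaker with Block9del rather than without a peak: 248 (72.1%) were in both whole Block9del lists, 66 (19.2%) in 1 and 30 (8.72%) in neither. The reverse held for 2 regions (0.0499%), both of which were in both whole Block13del lists. All 4 libraries called 28 gained regions, none of the 4 called 2931 (73.2%), and the other 701 were called in mixed combinations. The 344 regions make up 59.2% of the Block13del-only set, while the 2 make up 0.396% of the Block9del-only set.

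This asymmetry stayed in direction under every alternative tried, although its size did not. The gained regions are defined anew in each setting, so the counts have different totals, beside 344 and 2 of 4006 above. They were 1698 and 11 of 24016 with whole lists, and 1150 and 17 of 8287 with lists of 30102 peaks. At equal covered length they were 105 and 4 of 2436, and with 50% of the region covered 126 and 4 of 3700. With lists of 50% of the length they were 20 and 4 of 1244.

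Scored by library, Block13del 1 called 19.5% of the gained regions and Block13del 2 called 17.7%. Block9del 1 called 1.67% and Block9del 2 called 2.25%. The groups do not overlap, and the difference of 16.6 points was larger than the spread in either (18.6% ± 1.29 against 1.96% ± 0.406, SD, n = 2 each). The exact two-sided permutation test gave p = 0.333, the smallest that 6 splits allow, also after adjustment. In the same date code ARID1B_A457_G461del called 66.9% and 68.1%, and ARID1A_Y42S 1.40% and 4.19%. Block9del therefore lay within the range of ARID1A_Y42S. Empty_vector is at 0% by the definition of the set. In the alternatives the gained regions are defined anew. The difference was 3.66 points with lists of 50% of the length (1244 regions) and 8.03 with 50% of the region covered (3700). It was 9.75 at equal covered length (2436), 26.2 with lists of 30102 peaks (8287) and 27.6 on the 1905 regions gained with both wild-type proteins.

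Lost regions leaned the other way. Block13del 1 and 2 still called 76.6% and 75.6% of the 1951 lost regions, and Block9del 1 and 2 called 82.2% and 84.5%. The difference was -7.25 points, again without overlap (76.1% ± 0.761 against 83.3% ± 1.59, SD, n = 2 each), with the same exact permutation p of 0.333. Only with Block13del were 15 lost regions (0.769%) called, and only with Block9del 72 (3.69%). Over all 32972 regions these shares were 1.76% and 1.53%. Block13del 1 and 2 called 19262 and 19199 of all regions, and Block9del 1 and 2 called 19188 and 19219. At equal list length, more calls of gained regions leave fewer places for others. The part of this in the difference was not tested. ARID1B_A457_G461del kept 37.5% and 35.1%. At equal covered length the difference between the deletions was -0.199 points (p = 1 in the exact permutation test). The lost regions are defined anew in such settings, and that set had 251 regions. With whole lists the difference was -14.6 points over 465 lost regions, and with 50% of the region covered -14.1 points over 1206. Of the 1951 regions themselves, the whole lists called 93.6% with Block13del and 96.0% with Block9del (means, n = 2 each).

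Regions open in all 4 libraries showed the same lean in rank for the gained sites. Over the 15742 regions called in all 4, both Block13del ranks were better than both Block9del ranks in 2474 (15.7%), and the reverse in 2731 (17.3%). Among the 28 gained regions called in all 4, the first held for 16 (57.1%) and the reverse for 0. Their median rank was 12218 with Block13del and 15916 with Block9del. For the 1119 lost regions called in all 4 the shares were 15.1% and 17.4%, near those of all regions.

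Gained regions kept with Block13del ranked higher with the wild-type protein than those not kept. The 344 regions kept with Block13del alone had a median rank of 5601 in the ARID1B_WT lists, against 13036 for the 2931 regions that none of the 4 libraries called. Divided into 10 bins by rank in ARID1B_WT, the strongest 401 gained regions were called at 68.3% and 62.3% by Block13del, and at 5.49% and 8.48% by Block9del. In the weakest bin of 401 the means were 3.37% ± 0.882 and 0.873% ± 0.529 (SD, n = 2 each). ARID1B_A457_G461del went from 98.8% ± 0.353 in the strongest bin to 37.2% ± 1.06 in the weakest (SD, n = 2). These trends were not tested.

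**Figure D3:**
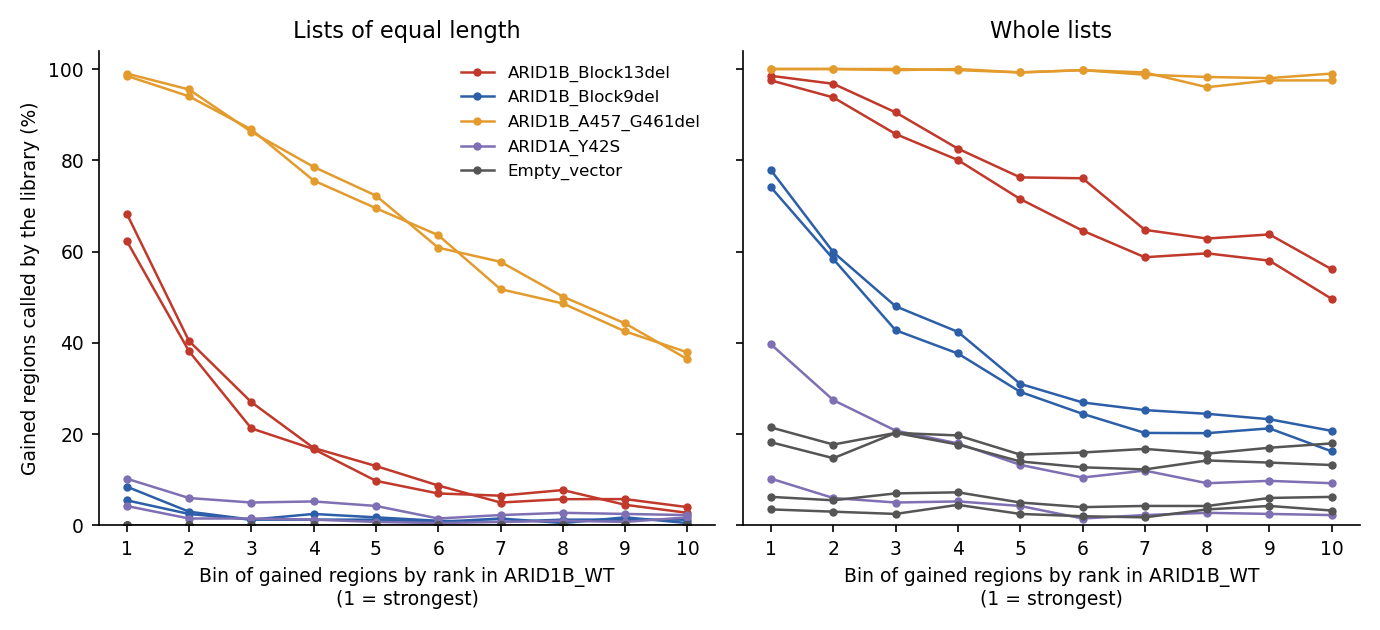
Percent of gained regions called (y axis) in 10 bins of about 400 regions, ordered by rank in the ARID1B_WT lists (x axis, 1 is the strongest bin), for lists of equal length (left) and whole lists (right). Each line is a library. In the strongest bin Block13del reached 68.3% and 62.3% on the left. On the right Block9del reached 74.1% and 77.8%, above every Empty_vector library, whose values the choice of regions lowers.

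In the whole lists, Block9del lay between Block13del and the empty vector. Block9del 1 and 2 called 34.4% and 38.0% of the gained regions at full length, and Block13del 1 and 2 called 76.8% and 71.9%. Empty_vector 1 to 4 called 15.1%, 17.8%, 3.07% and 5.57%, although the first and second have lists of 45286 and 49528 peaks, longer than those of Block9del. Both Block9del libraries lay above all 4 Empty_vector libraries, by 25.8 points on average (36.2% ± 2.49, SD, n = 2, against 10.4% ± 7.16, SD, n = 4). The exact two-sided permutation test gave p = 0.0667, the smallest that 15 splits allow, and an adjusted p of 0.167. Empty_vector values are lowered by the choice of regions, which had to be absent from those lists at equal length.

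The calls of ARID1A_Y42S 1, of the same code and with a list of 28883 peaks, did not define the gained regions. It called 17.0% of them. ARID1A_AQGscramC1C2, of code F, called 11.9% and 21.7% with 28931 and 36160 peaks. With every list cut at 27500 peaks, Block9del called 21.9% and 25.0%, ARID1A_Y42S 1 called 13.5% and Block13del 59.8% and 58.9%. In the strongest bin at full length, Block9del called 74.1% and 77.8%, Block13del 98.5% and 97.5%, ARID1A_Y42S 1 39.7%, and Empty_vector 3.49% to 21.4%. Most of the strongest gained sites thus had a peak with both deletions, and fewer with Block9del.

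**Figure D4:**
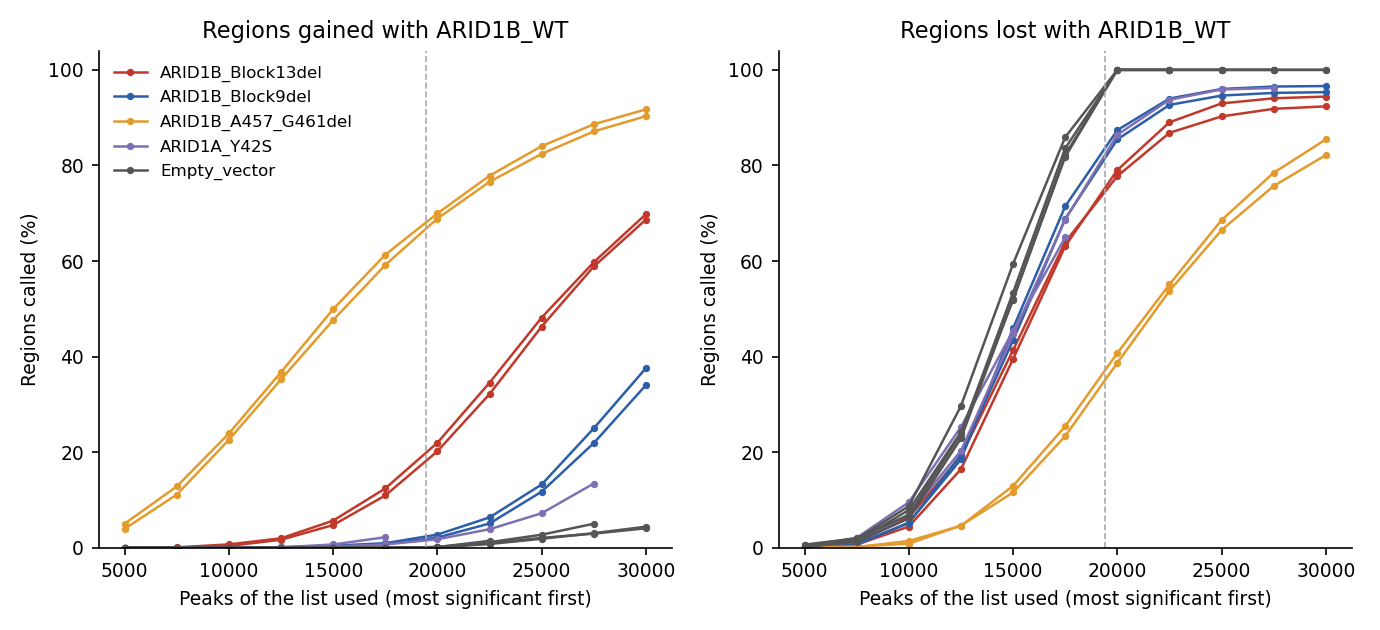
Percent of gained (left) and lost (right) regions called (y axis) as the list is lengthened from its most significant peak (x axis, number of peaks). Each line is a library and stops where its list ends, and the dashed line marks 19433 peaks. At 27500 peaks on the left, Block13del stands at 59.8% and 58.9%, Block9del at 21.9% and 25.0%.

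The regions new against the empty vector were also counted for each deletion. Both Block13del libraries called 602 regions that no Empty_vector library called (1.83% of all), and both Block9del libraries called 225 (0.682%). Of the 602, 430 (71.4%) were called in both ARID1B_WT libraries, against 35 of the 225 (15.6%). Over all 10141 regions that no Empty_vector library called, the share in both ARID1B_WT libraries was 39.5%. The 430 and 35 are by definition the gained regions that both libraries of a deletion called, so these shares are no separate support for the recovery above. For comparison the share was 75.7% of 3160 with ARID1B_A457_G461del, 17.7% of 209 with ARID1A_Y42S and 66.3% of 2874 with ARID1A_WT. These counts share the Empty_vector libraries.

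The 344 regions kept with Block13del alone were widely shared with other active forms. Both libraries called 342 of them (99.4%) with ARID1B_A457_G461del, 335 (97.4%) with ARID1B_S320_G327del and 302 (87.8%) with ARID1A_WT. With ARID1A_DBDmut it was 200 (58.1%) and with ARID1A_delIDR1 177 (51.5%). ARID1A_CBR called 67 (19.5%), ARID1A_DDX4 22 (6.40%), and ARID1A_Y42S and ARID1A_AQGscramC1C2 6 each (1.74%). Over all 4006 gained regions the same shares were 59.7%, 76.5%, 47.6%, 20.0%, 19.2%, 8.51%, 2.35%, 0.924% and 0.849%, so each of these forms called more of the 344 than of the gained regions at large. The 344 are also stronger sites, with a median rank of 5601 in the ARID1B_WT lists against 11862 for all gained regions. Gained regions of matched rank were not compared.

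The 8 regions of this group with the best ranks lay on chromosomes 2, 3, 5, 7 and 8 (hg19) and were 861 to 1555 bp wide. All 8 were called in both ARID1B_WT, both ARID1A_WT and both ARID1B_A457_G461del libraries. The first, at chromosome 5, 178069025 to 178070221, ranked 8020 and 9383 in the Block13del lists, with a fold enrichment over the caller's background of 6.93 and 6.65. In the whole Block9del lists it ranked 19682 and 20291, just past the 19433 peaks kept, with a fold of 5.64 and 5.34. No whole Empty_vector list held it.

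On chromosome 8, the region from 61532026 to 61532901, ranked 11439 and 11390 with Block13del and 24971 and 24850 with Block9del. At chromosome 5, 124268237 to 124269118, the ranks were 11157 and 11915 with Block13del against 22556 and 24522 with Block9del. Of the 24 other libraries 8 called it, the fewest of these 8 regions. At chromosome 8, 130860863 to 130861863, Block13del ranked it 9516 and 10688, Block9del 2 ranked it 21759, and Block9del 1 did not call it. It is the region of the 8 that is missing from a whole Block9del list. The other 4 were the regions from 140104109 to 140105570 on chromosome 7, from 188665295 to 188666849 on chromosome 3, from 111016247 to 111017342 on chromosome 5 and from 62240980 to 62241840 on chromosome 2. Their Block13del ranks ran from 7912 to 13954 and their Block9del ranks from 20632 to 24257. These ranges could not overlap, since the set takes regions called in both Block13del and no Block9del library at equal list length.

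Just 2 gained regions were kept with Block9del alone. One, at chromosome 19, 58175564 to 58176460, ranked 18785 and 14287 with Block9del and 28712 and 23021 with Block13del. The other, at chromosome 13, 48684057 to 48685816, ranked 18056 and 17495 with Block9del and 20046 and 20092 with Block13del. Both were in all 4 whole Empty_vector lists, so they count as gained by rank alone.

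**Figure D5:**
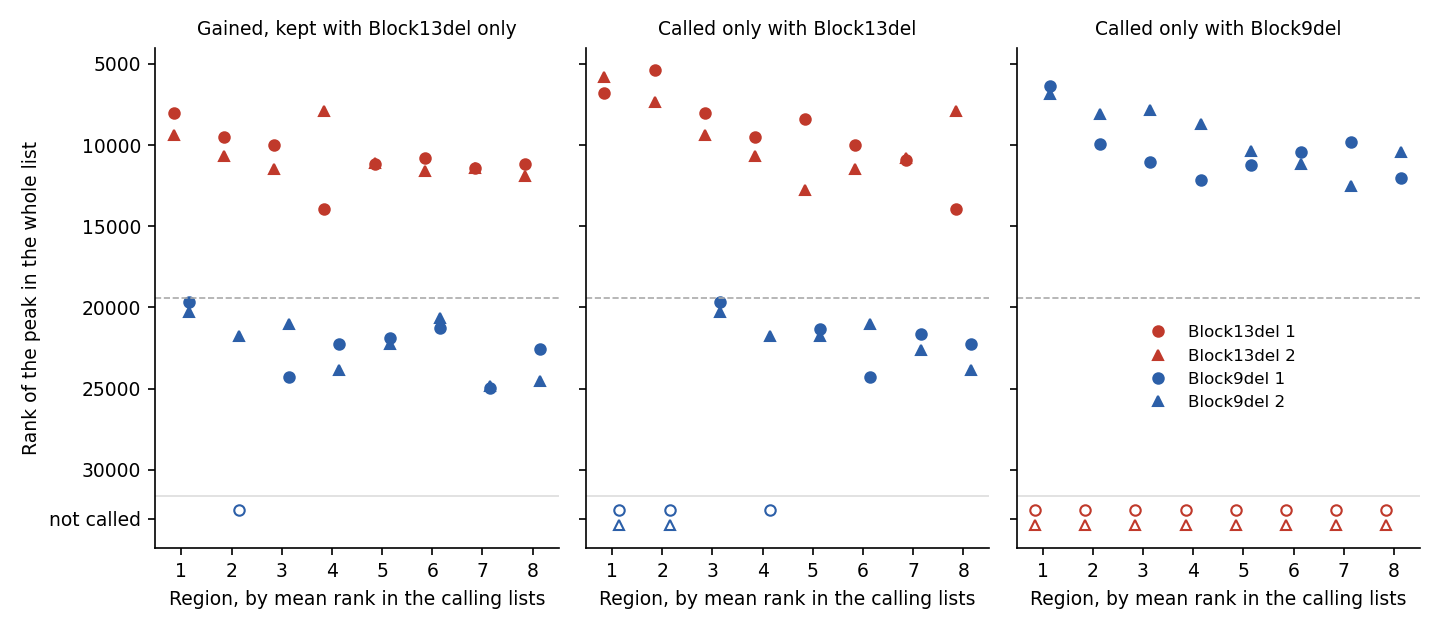
Rank of the peak in the whole list (y axis, best at the top, open symbols for no call) for the 8 best-ranked regions (x axis) of 3 sets. Red is Block13del and blue Block9del, circles are replicate 1 and triangles replicate 2, and the dashed line marks 19433 peaks. Block13del calls none of the 8 in the right panel even at full length.

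The best-ranked regions of the whole Block13del-only and Block9del-only sets included sites open in most libraries. The best-ranked Block13del-only region, at chromosome 7, 38407611 to 38408208, ranked 6802 and 5786 with Block13del and was called in all 24 other libraries, but in neither whole Block9del list. The next, at chromosome 1, 156695651 to 156696628, ranked 5407 and 7344 and was called in 22 of the 24, and in all 24 at full length, but again in neither Block9del list. The 6 others of the best 8, of which 4 are gained regions given above, were in at least 1 whole Block9del list.

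Among Block9del-only regions the 8 best-ranked were narrow, 390 to 746 bp, and absent from both whole Block13del lists in all 8 cases. The first, at chromosome 7, 156556452 to 156557107, ranked 6372 and 6878 with Block9del, with a fold of 9.68 and 8.52. Those at chromosome 12, 54793142 to 54793531 (ranks 11070 and 7829), and at chromosome 5, 147007551 to 147008032 (ranks 9952 and 8097), were called in 24 and 21 of the 24 others, and in all 24 at full length. All 4 Empty_vector libraries called 5 of the 8, and both ARID1B_WT libraries also called 5. The other 5 were the regions from 115681456 to 115682201 and from 10010283 to 10010872 on chromosome 1, from 117177032 to 117177604 on chromosome 10, from 142339937 to 142340448 on chromosome 7 and from 40075189 to 40075863 on chromosome 1. The last of these was called in no wild-type library.

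Among regions that all 4 libraries called, the largest change in rank towards Block13del was at chromosome 12, 123753563 to 123756944. It ranked 2485 and 4720 with Block13del and 13914 and 12953 with Block9del, with a fold of 5.46 and 5.18 against 3.36 and 3.33. The next, at chromosome 5, 150168830 to 150170411, ranked 7523 and 8346 against 16670 and 18007. It is a gained region, called in both ARID1B_WT and both ARID1A_WT libraries, and in Empty_vector only at full length. The following 3 ran from 68606101 to 68609644 on chromosome 11, from 53460814 to 53461915 on chromosome X and from 47674772 to 47676779 on chromosome 7.

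Towards Block9del, the largest change was at chromosome 1, 48963869 to 48964590, with ranks of 7587 and 4089 against 9331 and 19086 with Block13del. The Block13del libraries differ widely there, so the shift rests mainly on Block13del 2. At chromosome 16, 89440880 to 89442367, the ranks were 12082 and 12453 against 18551 and 19398. At equal list length no ARID1B_WT library called it while all 4 Empty_vector libraries did, but both whole ARID1B_WT lists held it. The other 3 ran from 76090898 to 76091449 on chromosome 7, from 82023587 to 82024647 on chromosome 8 and from 43508703 to 43509851 on chromosome 17. All 5 were called in all 4 Empty_vector libraries.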

How the data were processed

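ATAC-seq peak lists of 28 AN3CA libraries were used as deposited, 1 list a library. MACS2, SAMtools 0.1.19, Picard 2.8.0, Bowtie2 and bcl2fastq are named in the submitters' processing notes, with build hg19. The sources used here give no caller options, control or offset of cut sites. CUT&Tag is described in the series' design text, but its title and those of the samples name ATAC-seq, which was followed. The authors' deposited lists hold, for each peak, a score, a fold enrichment (a ratio over the caller's background) and the p-value and q-value as -log10. These serve only within a list. Peak names give a date code.

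Peaks on chromosomes 1 to 22 and X were ranked by -log10 p-value, lists trimmed to 19433 peaks and merged, and regions found in at least 2 libraries kept. Means were compared with exact permutation tests, two-sided, with Benjamini-Hochberg adjustment over 5 tests. Shares per library have 95% Wilson intervals of at most 4.34 percentage points to either side (1.54 for gained regions), which cover counting error only. Named regions were the 8 best-ranked of each set and the 5 largest changes in rank, without overlap of the deletions' ranks, in each direction. The members and lists were chosen with earlier results of these data known. Python 3.11.15, numpy 2.4.6, pandas 2.3.3 and scipy 1.17.1 were used. The set calls were also run on lists simulated from Block9del 1, with shared peak positions. Such lists cannot give the rate of false calls in the real sets. The gene tables in use here are of another build (GRCh38), so regions were not assigned to genes, and the planned gene lists, cell type markers, motifs and sequences were not analysed here.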

Additional observations from a re-analysis of the deposited data

How the results depend on the processing

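All counts of regions moved with the matching of lists, which also defines the regions and the gained and lost sets anew. Regions called only with Block13del numbered 2224 with whole lists, 1523 with lists of 30102 peaks, 175 with lists of 50% of the length, 884 when ranked by fold and 324 with 50% of the region covered. Those only with Block9del numbered 896, 1209, 167, 841 and 921 in the same order, and 107 at equal covered length. Gained regions kept with Block13del alone numbered 1698, 1150, 20 and 126 (whole, 30102 peaks, 50% length, 50% covered) and 105 at equal covered length. Those kept with Block9del alone numbered 11, 17, 4 and 4 in that order, 4 at equal covered length and 1 with all 4 wild-type libraries. Without each replicate in turn the 4 counts were 988 to 1440, 1100 to 1202, 362 to 682 and 3 to 10. They grow by construction, as fewer libraries must agree, and the gained regions kept with Block13del alone were 615 and 682 without Block13del replicate 1 or 2.

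The difference in recovery of gained regions kept its direction in all alternatives (3.66 to 61.9 points, the highest when regions were merged from the 4 lists alone, which leaves out gained regions that none of them calls). So did retention of lost regions (-14.6 to -0.199 points, over lost sets defined anew, of 465 and 251 regions). The balance of wild type against Empty_vector kept its direction in all alternatives and an unadjusted p of 0.0286 in all but 1. It was 85.5 points with the replicate number as a block, where p was 0.111 (exact permutation within numbers, replicates 1 and 2 only, the smallest p that this design allows), and 48.0 to 89.2 points without each replicate in turn, with 48.0 and 52.3 without Block9del replicate 1 and 2. With the replicate block, recovery (16.6 points) and retention (-7.25 points) had p = 0.5 (exact permutation), the smallest that 2 pairs allow. Deviations of same-numbered libraries of the deletions had a weak negative correlation (r = -0.130 over 15742 regions, which are not independent). With 2 replicates a deletion, both numbers give this same value. The crossed pairing, chosen after seeing the data, gave 0 calls, as did the numbered one, and neither could give any. No depth is known, and a site just under the threshold of a list cannot be told apart from a closed one.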

Other observations

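A few sites that are open in all other libraries were missing from 1 deletion alone. In the whole lists, 2 regions were called in all 26 libraries other than Block9del and in neither Block9del list, at chromosome 1, 156695651 to 156696628, and chromosome 7, 38407611 to 38408208. Another 5 were called in all 26 libraries other than Block13del and in neither Block13del list. These ran from 182931551 to 182932318 on chromosome 1, from 129348801 to 129349619 on chromosome 4, from 147007551 to 147008032 on chromosome 5, from 100423886 to 100424553 on chromosome 10 and from 54793142 to 54793531 on chromosome 12. The median fold over the 26 libraries was 3.68 and 4.98 for the 2 regions and 6.37 to 7.81 for the 5. The same count was 0 for ARID1B_A457_G461del, ARID1A_DBDmut, ARID1A_delIDR1 and ARID1A_CBR, 1 for ARID1A_WT and ARID1A_AQGscramC1C2, 3 for ARID1B_WT, 6 for Empty_vector (4 libraries against 24) and 11 for ARID1B_S320_G327del. It was 20 for ARID1A_Y42S, which has the shortest list, and 128 for ARID1A_DDX4, with lists of 21157 and 23636 peaks. These regions were singled out after their values were seen, and no test was made.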
